A study of Mus musculus with 6 samples.

Results

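The epidermal growth factor (EGF) receptor ligands and the ErbB receptors were read from the RNA-seq count tables of mouse kidney as 10 genes chosen by symbol: the ligands Egf, Hbegf, Areg, Ereg, Tgfa and Btc and the receptors Egfr, Erbb2, Erbb3 and Erbb4, of 24422 genes in the tables. The comparison was between 6 whole-kidney libraries, 3 from control mice labelled wild type and 3 from mice with the genotype Tfr1f/f;KspCre, titled TfR1KO;KspCre and called knockout here. All the mice were C57BL/6, were taken at postnatal day 60 and ate a diet with 220 ppm iron. In the knockouts, Cre under the Ksp-cadherin (Cdh16) promoter removes floxed exons of TfR1, the transferrin receptor gene (Tfrc), in the distal nephron and collecting duct, so a whole-kidney library also holds RNA of cells that keep the gene, such as proximal tubule (PT), vessel and stromal cells. The comparison asks which transcripts differ in the kidney when this receptor is targeted in distal tubules. Loss of iron uptake through the receptor was not measured in these libraries.

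The ligands are made as membrane-anchored precursors and are cut loose by metalloproteases of the ADAM family. EGF, TGF-alpha and amphiregulin (Areg) bind EGFR alone, while HB-EGF, betacellulin (Btc) and epiregulin (Ereg) also bind ErbB4. ErbB2 has no known ligand and signals as a partner in heterodimers, and ErbB3 binds neuregulins but has a weak kinase and needs a partner. Bound receptors signal through Ras and ERK, PI3K and AKT, and STAT3. The kidney is a main site of Egf transcription, in the thick ascending limb (TALH) and distal convoluted tubule (DCT), where EGF acts on tubular growth and, through TRPM6, on magnesium uptake. HB-EGF, TGF-alpha and amphiregulin are known as ligands induced in injured epithelia.

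The sequences just upstream of the start sites of Egf and Areg are shown because these ligands stood at opposite ends in the counts, the most abundant ligand in controls and the ligand nearly missing from them. Each is 250 bases long, 5′ to 3′ on the gene's strand, from RefSeq on build GRCm38.p6, where windows were found for 7 of the 10 genes, and ends at the base before the start. Capitals mark exact matches on either strand to 5 motifs searched: the TATA box TATAAA, the cyclic-AMP response element TGACGTCA, the AP-1 site TGACTCA, the GC box GGGCGG and CCAAT.
Egf, chr3:129755323-129755572, minus strand: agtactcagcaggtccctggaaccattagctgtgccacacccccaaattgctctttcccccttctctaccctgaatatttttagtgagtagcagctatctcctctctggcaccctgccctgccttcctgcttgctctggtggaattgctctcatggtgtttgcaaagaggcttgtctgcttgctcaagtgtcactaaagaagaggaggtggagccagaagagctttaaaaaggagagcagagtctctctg
Areg, chr5:91139349-91139598, plus strand: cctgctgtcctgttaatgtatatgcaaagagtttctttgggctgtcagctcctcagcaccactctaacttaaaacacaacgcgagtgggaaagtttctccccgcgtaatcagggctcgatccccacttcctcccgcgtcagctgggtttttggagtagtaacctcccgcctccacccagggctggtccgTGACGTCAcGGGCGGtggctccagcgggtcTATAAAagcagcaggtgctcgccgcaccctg
The Areg window held a cyclic-AMP response element 61 to 54 bases before the start, a GC box 52 to 47 bases before it and a TATA box 31 to 26 bases before it, none of which overlap. Of 32851 mouse windows of this length, 1.55% held TGACGTCA, 32.7% held GGGCGG, 12.4% held TATAAA, 4.46% held TGACTCA and 33.9% held CCAAT. RefSeq lists 2 start sites for Egf, and the window shown is that of the upstream one. None of the motifs was found in either Egf window, and the GC content of the one shown was 50.4% against 57.2% for Areg and a median of 52.4% over all windows. Among the other members' windows, Tgfa held 2 GC boxes, Egfr held 1, Erbb2 held a CCAAT and Btc and Erbb4 held none of the motifs.

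The libraries held 11501053 to 21001341 counts, and the smallest was knockout 3. Knockout 1 stood apart from the other knockouts, at 9.67 on the first principal component (69.4% of the variance of log2 values) against -72.6 to -53.2 for the controls and 88.6 and 82.1 for knockout 2 and knockout 3. Control 2 was the only library with Y-linked transcripts, 3980 counts of 4 such genes with 52 of Xist, against at most 5 and at least 10458 in the others, so sex differs within the controls and not within the knockouts. Tfrc did not separate the groups, at 138, 168 and 62.0 CPM in controls and 214, 86.0 and 40.6 in knockouts (log2 fold change -0.11 ± 0.62, SE). With 1 library left out, the Tfrc value ranged from -0.96 (without knockout 1) to 0.29 (without knockout 3). Cdh16, whose promoter drives Cre, differed by -0.26 ± 0.29. Counts per gene do not separate exons, so reads of an allele that lacks a pair of exons can still count. CPM are counts per 1000000 counts of the library, scaled here by the trimmed mean of M-values (TMM). Of 15171 genes tested with edgeR, 2612 passed an adjusted p of 0.05 (a call, 17.2%), 1604 higher in knockouts (10.6%) and 1008 lower (6.64%), and in 46.0% the CPM of the groups did not overlap. Over all genes tested the log2 fold change had a median of 0.02.

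**Figure D1:**
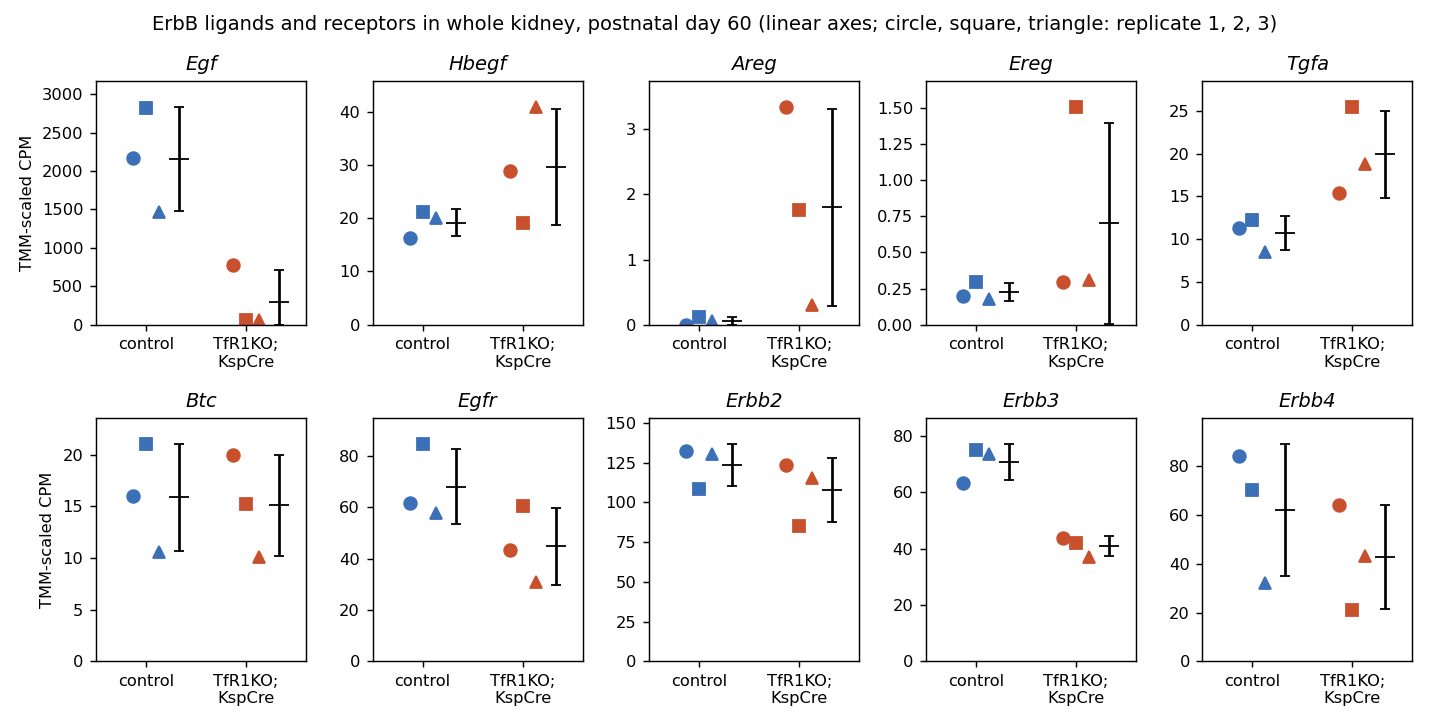
TMM-scaled CPM of the 10 genes in each library on linear axes that start at 0, with blue for control, orange for TfR1KO;KspCre, and black bars for mean ± SD (n = 3, cut at 0). Egf, Tgfa, Erbb3 and Areg are the panels in which the 3 knockouts lie clear of the 3 controls, while for Ereg knockout 1 and control 2 are level at 0.294 CPM.

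Of the 10 genes, 8 had enough counts to be tested. Erbb3 was the only one called, lower in knockouts, so 1 of 8 tested members was called against 17.2% of all genes. None was called higher by edgeR, and limma-voom also called Erbb3 alone, while it called 2030 of all 15171 genes. DESeq2 called Egf, Erbb3 and Tgfa, while it called 4882 of all 15171. These were also the 3 members with an unadjusted p under 0.05 in edgeR, as were 5862 of all 15171. The CPM of 3 of the 8 did not overlap between groups (Egf and Erbb3 lower, Tgfa higher), against 46.0% of all genes, and their median log2 fold change was -0.37 against 0.02. As a count, the family did not stand out from the rest of the table, and what follows is about the size and spread of single genes.

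Egf was the most abundant ligand transcript and showed the largest difference of the tested members. It lies on chromosome 3 (129380493 to 129458240, minus strand, mm9) with 4.785 kb of annotated exon. Controls had 43648, 48014 and 24445 counts, and knockouts had 15766, 1238 and 732. In CPM the controls held 2172, 2822 and 1467 and the knockouts 774, 62.1 and 56.1. Every knockout lay below every control, with knockout 2 and knockout 3 far below knockout 1. The log2 fold change was -2.86 ± 1.07 (SE), a mean 7.24-fold lower, and 99.5% of the genes tested had a larger value, yet the adjusted p was 0.0984 and Egf was not called. The spread turned on knockout 1, and without it the log2 fold change was -5.20 ± 0.39 (adjusted p = 0.00223, edgeR), in a fit that called 5332 of 15494 genes. Without any 1 of the other libraries Egf was not called (adjusted p = 0.159 to 0.212, edgeR). With all 6 libraries DESeq2 gave -2.89 with an adjusted p of 0.0300, and limma-voom gave -3.96 with an adjusted p of 0.0734.

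Egf was set beside markers of the segments that express it. Umod (uromodulin, the main urinary protein of the TALH) held 4599, 5328 and 1999 CPM in controls and 3444, 423 and 259 in knockouts, with knockout 1 inside the control range (log2 fold change -1.53 ± 0.99, adjusted p = 0.291). Slc12a1, the NKCC2 cotransporter of the TALH, changed by -1.46 ± 0.81 (adjusted p = 0.222), Kcnj1, the ROMK channel, by -0.83 ± 0.39 (adjusted p = 0.162) and Cldn10, a TALH claudin, by -1.61 ± 0.51 (adjusted p = 0.0671). None of the 10 TALH markers was called by edgeR (1 at an unadjusted p under 0.05) or by limma-voom. DESeq2 called 1 lower, against 2281 of 15171 genes. The median of the 10 was -0.82, and their summed level was 4943 to 10788 CPM in controls and 1215 to 7277 in knockouts. Without knockout 1, as for Egf above, edgeR called 7 of the 10 lower (against 16.4% of all genes in that fit), with a median of -1.62, among them Umod (-3.55, adjusted p = 0.00554), Slc12a1 (-2.67, adjusted p = 0.0220) and Cldn10 (-2.47, adjusted p = 0.00232). Of 10 DCT markers edgeR called only Pvalb (parvalbumin), and DESeq2 called 3 lower, against 2281 of 15171 genes. Pvalb in edgeR was at -3.25 ± 0.87 (adjusted p = 0.0471). It was -4.88 without knockout 1, and it was no longer called without any 1 of the other libraries (adjusted p = 0.0806 to 0.127). The list had a median of -0.67 and sums of 3339 to 4924 CPM in controls and 883 to 3706 CPM in knockouts, and without knockout 1 edgeR called 4 lower (against the same 16.4%), with a median of -0.95. Trpm6, the magnesium channel of the DCT that EGF is known to act on, held 32.1, 31.7 and 54.4 CPM in controls and 35.2, 22.5 and 28.5 in knockouts (-0.46 ± 0.27, adjusted p = 0.250).

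Egf was also low relative to a sum of 4 TALH markers. The log2 ratio of Egf to the summed CPM of Umod, Slc12a1, Kcnj1 and Cldn16 was -2.12, -1.61 and -1.37 in controls and -2.97, -3.74 and -4.34 in knockouts, without overlap. This ratio is taken within a library and does not depend on scaling. In bulk kidney RNA fewer cells of a type and less RNA per cell cannot be told apart. The ratio rests on 4 of the 10 TALH markers, mostly on Umod and Slc12a1, and on no DCT marker. Cldn16 held 10.4 to 34.5 CPM and so had little weight in the sum. The part of TALH or DCT cell number in the Egf difference was not tested.

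**Figure D2:**
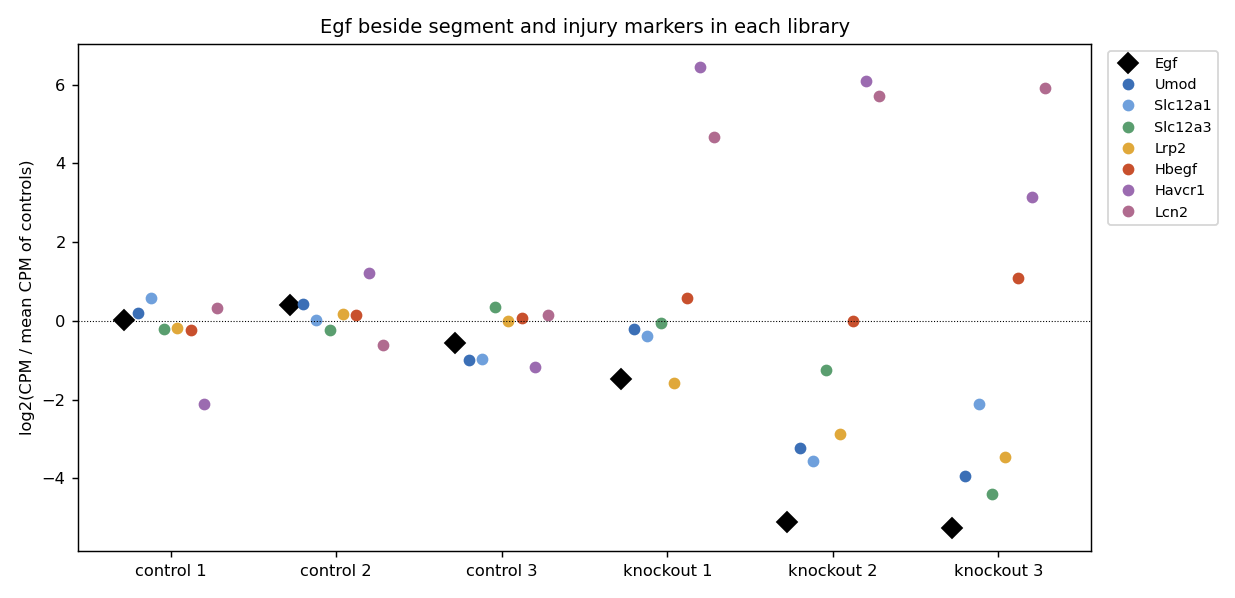
Level of Egf (black diamonds) and of markers of the TALH (Umod, Slc12a1), DCT (Slc12a3), PT (Lrp2) and tubular injury (Havcr1, Lcn2), and of Hbegf, in each library, as log2 of CPM over the control mean. In knockout 1 Umod (-0.21) and Slc12a3 (-0.07) lie near the controls while Egf lies at -1.48 and Lrp2 at -1.59, and in knockout 2 and knockout 3 Egf (-5.12 and -5.26) is the lowest of the genes drawn.

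Among 7003 genes averaging 5 or more on the log2 CPM scale, the 5 whose pattern over the 6 libraries was nearest to Egf were Mep1b, Slc22a19, Ugt3a1, Gpx6 and Gm853, with root mean square differences in centred log2 CPM of 0.23, 0.41, 0.43, 0.50 and 0.52. Mep1b encodes meprin beta, a brush border protease of the PT, and held 207, 317 and 109 CPM in controls and 61.2, 6.82 and 5.67 in knockouts, and Slc22a19 encodes an organic anion transporter. The nearest genes therefore include PT genes, and no TALH marker listed above is among the 5.

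Hbegf, on chromosome 18 (36664583 to 36675459, minus strand, mm9), had 328, 359 and 334 counts in controls and 588, 381 and 533 in knockouts. In CPM these were 16.3, 21.1 and 20.1 against 28.9, 19.1 and 40.8. Knockout 2 lay inside the control range and the other knockouts lay above it. The log2 fold change was 0.63 ± 0.28 (adjusted p = 0.149), and 22.1% of all genes tested had a larger one. Of 7004 genes, the nearest in pattern were Jund, Rabep2, Brms1, Tspan1 and Tfcp2l1, at differences of 0.15 to 0.19. Jund, an AP-1 subunit, held 154, 150 and 142 CPM in controls and 212, 157 and 325 in knockouts.

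Tgfa (transforming growth factor alpha, chromosome 6, 86145420 to 86225151, plus strand, mm9) had 227, 209 and 141 counts in controls and 315, 507 and 246 in knockouts. In CPM the controls held 11.3, 12.3 and 8.46 and the knockouts 15.5, 25.4 and 18.8. Each knockout was above each control. The log2 fold change was 0.90 ± 0.25, a 1.86-fold higher mean, and the adjusted p of 0.0522 stood just outside the threshold. DESeq2 gave 0.88 with an adjusted p of 0.0123, and edgeR without knockout 1 gave 1.04 with an adjusted p of 0.0215. Without any 1 of the other libraries Tgfa was not called (adjusted p = 0.107 to 0.138, edgeR).

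Btc (chromosome 5, 91786287 to 91831939, minus strand, mm9) held 16.0, 21.0 and 10.6 CPM in controls and 19.9, 15.3 and 10.1 in knockouts. The ranges nearly coincided, and the log2 fold change of -0.07 ± 0.34 (adjusted p = 0.897) changed sign with the scaling, to 0.20 with library size alone.

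Areg (chromosome 5, 91568641 to 91577458, plus strand, mm9) was almost missing from controls, with 0, 2 and 1 counts, and was counted 68, 35 and 4 times in knockouts. Its CPM were 0, 0.118 and 0.0600 against 3.34, 1.76 and 0.306, so even the lowest knockout was above the controls. Summed, the knockouts held 107 counts and the controls 3, a ratio of 35.9 after scaling (95% exact Poisson interval 12.0 to 177.0, which covers counting error only and not the spread between mice). Areg failed the filter on low counts. Without that filter edgeR gave a log2 fold change of 4.84 ± 1.11 (adjusted p = 0.0351) and DESeq2 an adjusted p of 0.00105, and a fitted value against counts this close to 0 depends on the prior count. Left without 1 library in turn, again with no filter, edgeR gave 4.05 (without knockout 1) to 5.72 (without control 2), and Areg was called only without knockout 1 (adjusted p = 0.0312, and 0.0519 to 0.109 otherwise). Knockout 1, where Egf was the highest of the knockouts, held the most Areg.

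Ereg, the neighbour of Areg (chromosome 5, 91503643 to 91522675, plus strand, mm9), had 4, 5 and 3 counts in controls and 6, 30 and 4 in knockouts. Only knockout 2 stood out, at 1.51 CPM against 0.180 to 0.306 in the other 5 libraries. The summed ratio was 3.36 (interval 1.73 to 7.03, counting error only), and without the filter the adjusted p was 0.205 with edgeR and 0.211 with DESeq2. Knockout 2 was also the library with the highest sum of 10 urothelial markers, 1340 CPM against 226 to 415 in the others, with the basal keratin Krt5 at 347 CPM against at most 12.3 elsewhere. The part of urothelium in the Ereg counts was not tested.

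Set per kilobase of exon so that genes can be compared, the ligands in controls were ordered Egf (450 ± 142 CPM per kb, SD, n = 3), Hbegf (8.07 ± 1.06), Btc (5.67 ± 1.85), Tgfa (2.84 ± 0.53), Ereg (0.054 ± 0.015) and Areg (0.049 ± 0.049). The ranges of Hbegf and Btc overlapped, as did those of Ereg and Areg. In knockouts the order was Egf (62.1 ± 86.2), Hbegf (12.5 ± 4.58), Btc (5.40 ± 1.76), Tgfa (5.29 ± 1.35), Areg (1.50 ± 1.26) and Ereg (0.170 ± 0.168), with overlapping ranges for Egf and Hbegf, for Btc and Tgfa and for Areg and Ereg.

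Egf made up 96.7%, 96.7% and 95.5% of the summed level of the 6 ligands per kb in controls. In knockouts its share was 86.0%, 37.0% and 30.9%, a mean 45.0 percentage points lower. The Hbegf share was 1.46%, 1.46% and 2.63% in controls. In knockouts it was 6.47%, 23.0% and 45.4%, and in knockout 3 the Hbegf level per kb was above that of Egf (log2 ratio of Hbegf to Egf 0.55, against -6.05 to -5.18 in controls). Most of this shift lay in Egf itself, but the other 5 ligands together were also higher, at 15.6, 19.8 and 14.6 CPM per kb in controls and 26.3, 22.1 and 26.2 in knockouts, without overlap. The 6 ligands summed to 469, 610 and 321 CPM per kb in controls and to 188, 35.1 and 37.9 in knockouts, a description with no test.

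**Figure D3:**
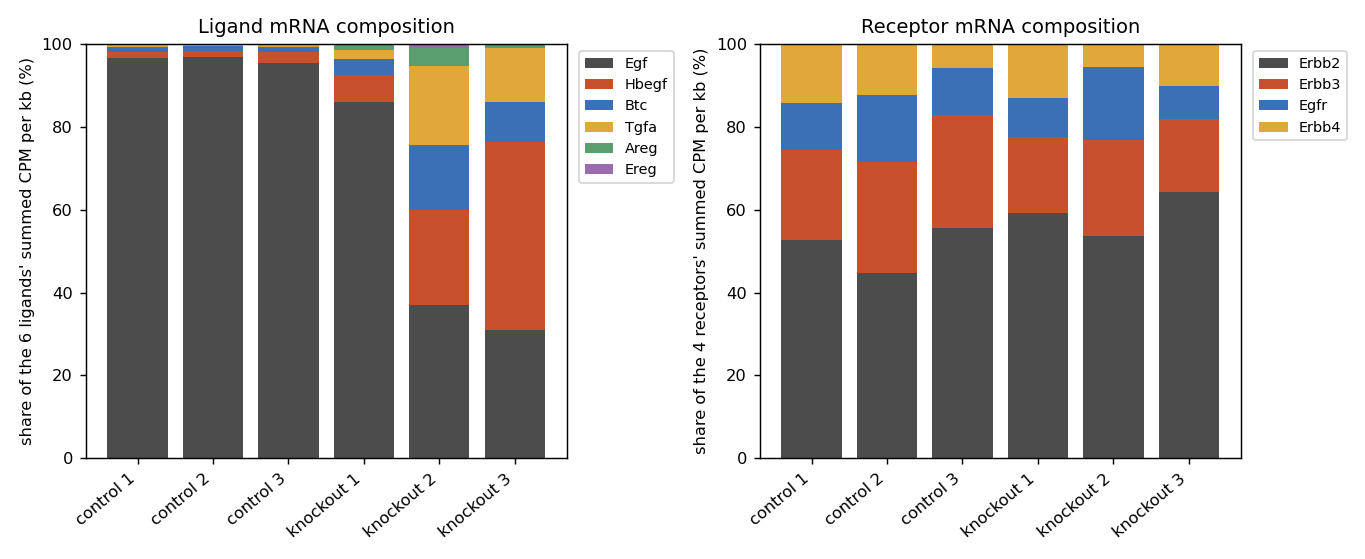
Share of each ligand in the summed level of the 6 ligands (left) and of each receptor in that of the 4 receptors (right), in percent of CPM per kb of exon, 1 bar per library. The dark Egf segment is 95.5% or more in each control and 86.0%, 37.0% and 30.9% in the knockouts, while Erbb2 is the largest receptor segment in all 6 libraries.

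Erbb3, the neuregulin receptor (chromosome 10, 128004579 to 128026708, minus strand, mm9), was the member that passed the test. It had 1272, 1278 and 1227 counts in controls and 888, 837 and 482 in knockouts. The controls held 63.3, 75.1 and 73.7 CPM and the knockouts 43.6, 42.0 and 36.9. All 3 knockouts were low, knockout 1 included, and the spread within each group was small. The log2 fold change was -0.79 ± 0.13, a 1.73-fold lower mean (adjusted p = 0.0282, edgeR). The size held when any library was left out (-0.88 to -0.72), whereas the call held only without knockout 1, with adjusted p-values of 0.0632 to 0.118 otherwise. With control 2 left out, the library with Y-linked transcripts, it was -0.76 (adjusted p = 0.118). Leaving out any 1 control left no gene of the whole table called by edgeR, with 4270 to 4823 genes at an unadjusted p under 0.05.

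Egfr, which binds all 6 ligands (chromosome 11, 16652206 to 16818161, plus strand, mm9), had 1241, 1443 and 965 counts in controls and 883, 1206 and 402 in knockouts. The CPM were 61.7, 84.8 and 57.9 against 43.3, 60.5 and 30.8. Knockout 2 lay inside the control range and the other knockouts lay below it. The log2 fold change was -0.60 ± 0.27 (adjusted p = 0.151). With library size alone in place of TMM it was -0.32.

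Erbb2, the partner without a ligand (chromosome 11, 98273784 to 98299030, plus strand, mm9), held 132, 108 and 130 CPM in controls and 123, 85.1 and 115 in knockouts. The groups overlapped, and the log2 fold change of -0.20 ± 0.18 (adjusted p = 0.457) turned to 0.064 with library size alone. Its exons overlap a gene on the opposite strand, 1810046J19Rik, and the strand setting of the counting is not given in the sources used here.

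Erbb4 (chromosome 1, 68078760 to 69154633, minus strand, mm9) varied most among controls for a receptor, at 84.2, 70.4 and 32.1 CPM, against 64.0, 21.2 and 43.1 in knockouts. Its log2 fold change was -0.54 ± 0.47 (adjusted p = 0.429). For Egfr, Erbb2 and Erbb4 a p above the threshold does not show equal levels.

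Per kb of exon, the receptors were ordered Erbb2 (23.7 ± 2.54 CPM per kb in controls and 20.7 ± 3.87 in knockouts), Erbb3 (11.7 ± 1.07 and 6.79 ± 0.58), Egfr (6.02 ± 1.28 and 3.96 ± 1.32) and Erbb4 (5.04 ± 2.19 and 3.46 ± 1.73), the same order in both groups. The ranges of Egfr and Erbb4 overlapped in both groups and those of the other neighbours did not. The 4 receptors summed to 48.1, 46.5 and 45.0 CPM per kb in controls and 39.9, 30.4 and 34.5 in knockouts. Erbb2 made up 44.8% to 55.6% of this sum in controls and 53.8% to 64.2% in knockouts.

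**Figure D4:**
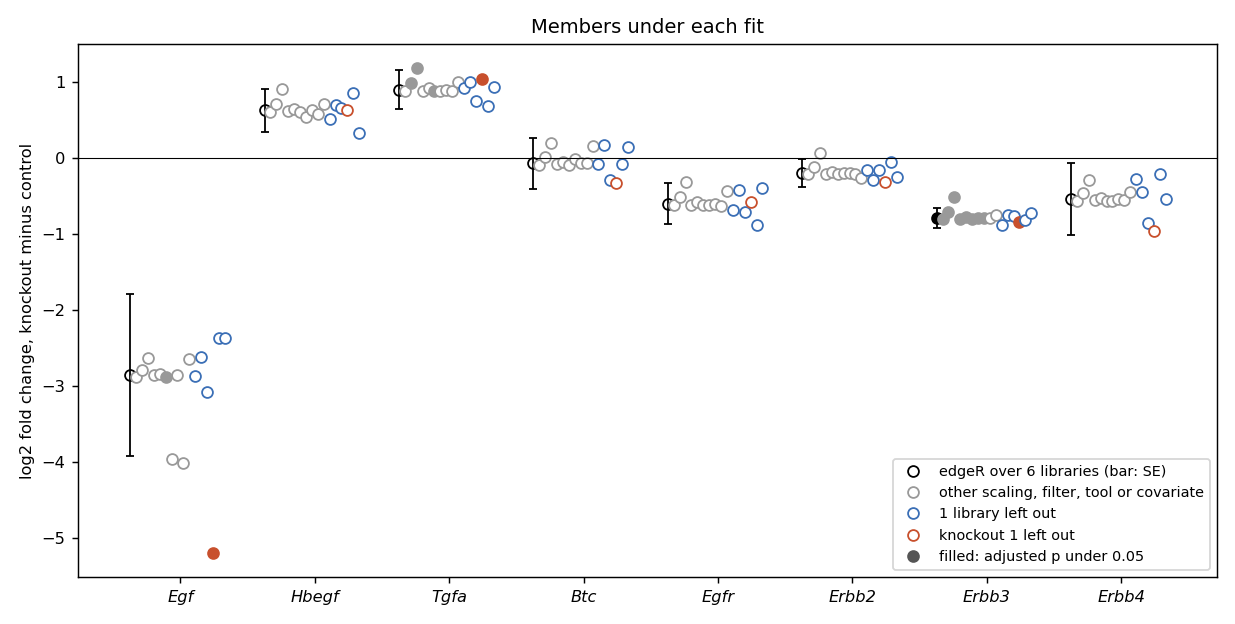
Log2 fold change (knockout minus control) of the 8 tested members in edgeR over all 6 libraries (black, with SE) and in each alternative, with filled symbols for an adjusted p under 0.05. Erbb3 stays between -0.88 and -0.52 in all of them, Egf reaches -5.20 without knockout 1, and Btc lies on both sides of 0.

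Of 5 other ErbB ligands, Nrg1 and Nrg4 had enough counts to be tested and neither was called by edgeR, DESeq2 or limma-voom, with none at an unadjusted p under 0.05 in edgeR. Nrg1, neuregulin 1, a ligand of ErbB3 and ErbB4, held 5.42 to 6.46 CPM in controls and 5.67 to 9.86 in knockouts (log2 fold change 0.40 ± 0.28, adjusted p = 0.313). Nrg4, an ErbB4 ligand, held 4.35 to 5.72 and 1.57 to 5.13 CPM (-0.56 ± 0.44, adjusted p = 0.381). Epgn, Nrg2 and Nrg3 were not tested, with at most 1.15 CPM in any library.

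Of 10 proteins that cut the ligands loose or help to do so, 3 were called higher (against 10.6% of all genes) and none lower (against 6.64%), with a median log2 fold change of 0.87. DESeq2 called 5 of them higher (against 2601 of 15171 genes) and limma-voom 2 (against 1112 of 15171). With library size alone edgeR called 7 higher (against 2985 of 15171), and without knockout 1 it also called 7 (against 2788 of 15494). Leaving out any 1 library other than knockout 1 left none of these 10, nor of the adaptors, inhibitors and ERK response genes described next, called by edgeR. The sheddase Adam17 itself, which cuts TGF-alpha, amphiregulin and HB-EGF, held 57.2, 53.2 and 47.7 CPM in controls and 66.6, 88.5 and 59.4 in knockouts (0.44 ± 0.18, adjusted p = 0.119), without overlap but not called. Adam10, which cuts EGF and betacellulin, gave 0.52 ± 0.20 (adjusted p = 0.0994). The 3 called were Rhbdf2 (iRhom2, which carries ADAM17 to the cell surface) at 1.21 ± 0.26, Adam12 at 1.92 ± 0.45 and Adam8 at 3.19 ± 0.47 (adjusted p = 0.0326, 0.0379 and 0.0271). Rhbdf2 held 18.3, 14.4 and 23.4 CPM in controls and 33.9, 39.3 and 56.8 in knockouts. Adam8 is known as a protease of myeloid cells and was highest in knockout 2 (20.0 CPM against 6.53 and 10.6 in the other knockouts), the library with the highest sum of 14 immune markers (1646 CPM, against 453 and 609, and 173 to 184 in controls). The part of immune cells was not tested.

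Of 28 adaptors and kinases downstream of the receptors, 4 were called higher and 1 lower, near the shares over all genes (10.6% and 6.64%). Their median log2 fold change was -0.11, and it was 0.16 with library size alone. Stat3, the transcription factor, was called at 1.11 ± 0.14 (adjusted p = 0.0271), with 100, 95.0 and 82.8 CPM in controls and 185, 202 and 212 in knockouts. Nras (0.80 ± 0.17), Akt1 (0.67 ± 0.15) and Src (0.41 ± 0.11) were also higher, and Pik3cb, a catalytic PI3-kinase subunit, was lower (-0.64 ± 0.17). Src and Pik3cb, at adjusted p-values of 0.0499 and 0.0467, were near the threshold.

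Of 19 inhibitors of the receptors or of the MAPK pathway, 2 were called higher and 1 lower, again near the 10.6% and 6.64% of all genes, with a median of 0.23. Errfi1 (MIG6), which binds and blocks the kinase of EGFR, was lower at -0.88 ± 0.23 (adjusted p = 0.0441), with 443, 592 and 444 CPM in controls and 260, 325 and 217 in knockouts. Dusp5, a nuclear ERK phosphatase, was higher at 2.00 ± 0.42 (adjusted p = 0.0326) but low in level, at 0.480 to 0.697 CPM in controls and 1.47 to 3.31 in knockouts. Socs3, an inhibitor of STAT3 signaling, was higher at 2.87 ± 0.32 (adjusted p = 0.0271), with 3.73, 2.06 and 4.50 CPM in controls and 26.9, 28.0 and 20.5 in knockouts.

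Of 16 genes known to respond to ERK, 15 were tested, 8 were called higher (against 10.6% of all genes) and none lower. Their median log2 fold change was 1.75, and 13 of the 15 did not overlap between groups, against 46.0% of all genes. The called genes were the early growth response factors Egr2 (4.25 ± 0.67) and Egr3 (4.03 ± 1.03, and 4.99 without control 3), the stress factor Atf3 (3.55 ± 0.50), Etv4 (2.67 ± 0.62, and 1.92 without knockout 3), Klf6 (1.78 ± 0.36), Myc (1.75 ± 0.24) and the AP-1 subunits Junb (1.74 ± 0.36) and Jun (1.67 ± 0.36). Myc held 7.07, 4.82 and 5.28 CPM in controls and 17.9, 22.9 and 17.0 in knockouts. Fos (3.31 ± 0.92, adjusted p = 0.0509) and Egr1 (2.44 ± 0.83, adjusted p = 0.0793) missed the threshold. With 1 library left out, Fos ranged from 2.59 (without knockout 3) to 4.02 (without control 3), and Egr1 from 1.90 to 3.11 in the same fits. Ccnd1 (-0.30 ± 0.33) and Etv5 (-0.34 ± 0.30) were the 2 with negative values. Many of these genes are known to answer to other stimuli too. The lists here, above and below were chosen with earlier results of these data known, so their shares beside those of all genes are descriptions. The controls themselves ranged from 3.88 to 38.9 CPM for Egr1, and the link of these genes to EGF receptor signaling was not tested.

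**Figure D5:**
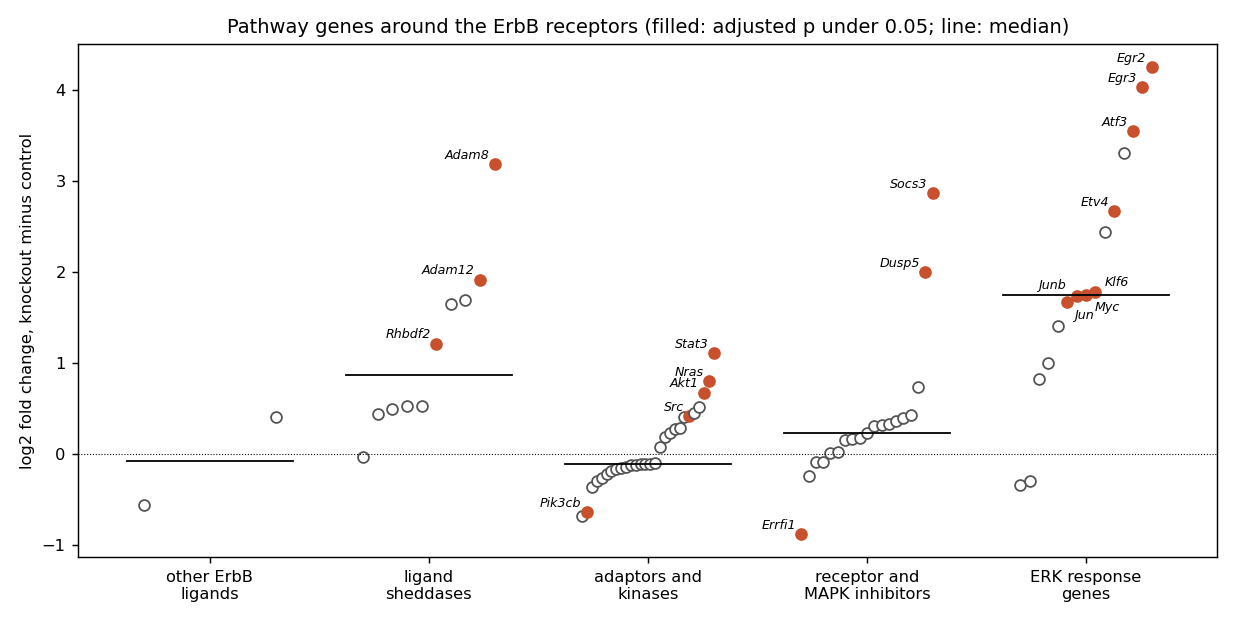
Log2 fold change (knockout minus control) of every tested gene of the 5 pathway lists, sorted within each list, with filled and named points for genes at an adjusted p under 0.05 and a line at the list's median. The ERK response genes (median 1.75) and the sheddases (0.87) lie mostly above 0, and the adaptors and kinases spread around -0.11.

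Markers of other cell types moved with the group beside these results. Of 12 PT markers 8 were called lower (Lrp2, Cubn, Slc34a1, Slc5a2, Slc5a12, Slc22a6, Slc13a3 and Gatm, against 6.64% of all genes) and none higher, with sums of 14990 to 21177 CPM in controls and 2682 to 8254 in knockouts. Against 10.6% of all genes, 10 of 12 injury markers were higher (Havcr1, Lcn2, Vcam1, Krt8, Krt18, Krt19, Krt20, Sox9, Cd44 and Timp1), 10 of 14 immune markers (Ptprc, Cd68, Adgre1, Itgam, Itgax, Cd3e, Cd3g, Cd14, Cx3cr1 and Lyz2) and 4 of 9 fibroblast markers (Col1a1, Col1a2, Col3a1 and Acta2), with fibroblast sums of 369 to 697 CPM in controls and 1064 to 4141 in knockouts. None of these calls was left without any 1 control or without knockout 3, and without knockout 2 there were 3 injury and 5 immune markers called and no PT or fibroblast marker. DESeq2 called 11 PT markers lower (against 2281 of 15171 genes). It called 12 injury, 11 immune and 8 fibroblast markers higher (against 2601 of 15171). Without knockout 1 edgeR called 12 PT markers lower (against 2544 of 15494 genes), and 11 injury, 13 immune and 8 fibroblast markers higher (against 2788 of 15494). Krt7 was higher among 10 urothelial markers, whose median of 1.92 was -0.19 without knockout 2. None of 11 collecting duct or 8 endothelial markers was called by edgeR or limma-voom (1 and 2 at an unadjusted p under 0.05). DESeq2 called 1 of each, and edgeR without knockout 1 called 2 collecting duct markers lower (against 16.4% of all genes in that fit). The part of these cell types in the values of the ErbB ligands and receptors was not tested.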

How the data were processed

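Whole-kidney poly-A RNA of 3 control and 3 TfR1KO;KspCre mice was sequenced. Per the labels and the study's methods, reads were called with CASAVA 1.8.2, trimmed with Trimmomatic, aligned to mm9 with TopHat2 2.0.11 and counted per gene with HTSeq. The authors deposited raw counts, which were used as deposited. The annotation and strand setting are not given in the sources used here. Groups came from the sample titles and genotype labels.

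Genes were filtered with filterByExpr (minimum count 10, minimum total 15; 15171 of 24422 kept), scaled by TMM and tested with edgeR 4.0.16 (quasi-likelihood, R 4.3.3) with Benjamini-Hochberg adjustment over all genes tested. The SE is the log2 fold change divided by the square root of F. Each p-value weighs the group difference against the variation between mice, with a dispersion that draws on all genes. It rests on 3 mice per group, and on fewer where a library was left out. Nearest patterns used log2 CPM with a prior count of 2. The tests were tried on simulated data with known changes. DESeq2 1.42.0, limma-voom (limma 3.58.1), other scalings, filters, covariates and leaving out each library were alternatives. Coordinates and exon lengths came from GENCODE M1 (mm9), which held 20791 of the 24422 gene names. Promoter windows are on a later build and served only for sequence.

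The members and lists were chosen with earlier results of these data known. The podocyte marker list is not reported here. Besides the members, the genes named were Tfrc, Cdh16, Xist and Y-linked genes as checks, all called genes of each list or otherwise those with the smallest p or the highest level, and the 5 genes nearest in pattern to Egf and to Hbegf. Trpm6, Adam17, Adam10, Slc12a3, Krt5, Fos, Egr1, Ccnd1 and Etv5 were named outside this rule, after their values were seen, and Cldn16 is named as part of the fixed ratio of Egf to TALH markers. Whether same-numbered libraries pair was checked through the correlation of their deviations from the group means (-0.13, 0.01 and 0.21), and the numbers were not taken as pairs.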

Additional observations from a re-analysis of the deposited data

How the results depend on the processing

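The direction of Egf, Hbegf, Tgfa, Egfr, Erbb3 and Erbb4 was the same in all 16 alternatives run for each, and the Egf share of the ligands, 45.0 points lower above, was lower in all 7 (44.9 points with longest transcripts, and 34.8 without knockout 3 to 62.3 without knockout 1). Btc turned positive with upper quartile scaling (0.011), library size alone (0.20), the Xist-to-Y covariate (0.16), without control 2 (0.17) and without knockout 3 (0.15), and ranged from -0.33 to 0.17 when 1 library was left out. Erbb2 turned to 0.064 with library size alone. Library size alone shifted the median of all genes to 0.29 and the share of higher calls from 61.4% to 81.8%. Tgfa was called with upper quartile scaling (0.98, adjusted p = 0.0432), library size alone (1.18, adjusted p = 0.0281) and DESeq2 (0.88), and ranged from 0.68 to 1.04 with 1 library left out. Egf was called with DESeq2 (-2.89) and without knockout 1, and ranged from -5.20 to -2.37 with 1 library left out, and from -0.88 to -0.72 for Erbb3. Egf was -3.96 with limma-voom (adjusted p = 0.0734) and -4.02 with the replicate block (adjusted p = 0.0807).

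Calls over all genes, 2612 with the settings used above, were 4882 with DESeq2, 0 at an adjusted p of 0.01 and 5034 at 0.1, and 0 to 5332 with 1 library left out (0 without any control, 5332 without knockout 1, 73 without knockout 2 and 2 without knockout 3). Members called, 1 above, were 2 with upper quartile scaling, library size alone or no filter (which adds Areg), 3 with DESeq2 or at 0.1, 0 at 0.01, and 0 to 3 with 1 library left out. Calls within the lists, 55 above, were 84 at 0.1, 0 at 0.01 and 0 to 92 with 1 library left out. With the replicate block there were 0 calls over all genes, 0 members and 0 list genes (5432 genes at an unadjusted p under 0.05), and Erbb3 was -0.79 (adjusted p = 0.0733). With the Xist-to-Y covariate there were also 0, 0 and 0 (4221 genes), and Erbb3 was -0.75 (adjusted p = 0.111). These fits have fewer residual degrees of freedom, and the cause of the lost calls was not tested further. The fits of Areg without the filter and without each library were chosen after seeing the data. Areg and Ereg are limited by depth, at 30 counts or fewer in all libraries but 2 for Areg.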
